A study of Mus musculus with 4 samples.

Results

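The 36 genes described here encode the enzymes and factors that copy DNA, supply its building blocks and restore chromatin behind the replication fork. They were chosen by name, with earlier results of these data known, and each was read from its brightest probe by the mean over 4 arrays. All 36 were found among 27827 gene names on the array, and the brightest probes of 36 were well above background on all 4 arrays, by the scanner software's own mark. The arrays were Agilent 1-colour arrays of RNA from B220 B cells freshly taken from naive mice; B220 is an isoform of the surface protein CD45 found across the B lineage. One array each was made for bone marrow and for spleen of mice of the strain labelled Mef2c KO (KO) and of C57BL/6 mice (wild type, WT). The labels state no age or sex, no count of animals per array, and no promoter or Cre for the removal of Mef2c, a transcription factor of lymphoid cells. Each group had 1 array, so differences between single arrays have no replicates behind them and no error can be given for them.

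DNA replication begins with licensing, when Cdc6 and Cdt1 load rings of the Mcm helicase onto origins. The Gins proteins and Mcm10 then help turn these rings into active helicases, polymerases copy the strands while held to the DNA by the Pcna clamp, and nucleotide synthesis supplies the precursors. In quiescent cells most of these genes are held low by Rb family proteins bound to E2F factors, and in the B lineage the large pro-B and pre-B cells of the marrow divide, whereas most follicular B cells of the spleen rest.

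Promoter sequences of a few of these genes are shown because most of the 36 genes, though not all, were lower in spleen than in marrow in both genotypes. RefSeq windows on build GRCm38.p6, from 250 bases before to 50 bases after the most upstream annotated start, were matched by symbol for 30 of 36 genes. Each was searched on both strands for the E2F words TTTCCCGC, TTTCGCGC, TTTGCCGC and TTTGGCGC and for CCAAT, the box bound by the factor NF-Y. An E2F word was found in 10 of the 30 windows (33.3%), in 20 of 80 windows of the other pathway genes described below (25.0%) and in 629 of 27025 windows of all genes (2.33%). A CCAAT box was found in 18 of 30 (60.0%), in 36 of those 80 (45.0%) and in 10275 of all windows (38.0%), and an E2F word overlapped a CCAAT box at 1 place in the 30 windows. The median GC content was 57.3% for the 30 windows, 62.5% for the 80 and 52.7% for all. The bases before the start follow for 6 genes, 5′ to 3′, with E2F words and CCAAT boxes on either strand in capitals. They include Rrm2, which had the largest difference between WT tissues, Rpa1, which had the smallest, and genes that hold several matches.
Mcm5, chr8:75109259-75109508, plus strand: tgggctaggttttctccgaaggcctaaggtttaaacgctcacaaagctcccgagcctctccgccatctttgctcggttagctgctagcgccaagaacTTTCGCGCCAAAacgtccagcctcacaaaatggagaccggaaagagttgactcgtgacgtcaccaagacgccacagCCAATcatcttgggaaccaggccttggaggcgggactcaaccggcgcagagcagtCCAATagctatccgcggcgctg
Mcm6, chr1:128359706-128359955, minus strand: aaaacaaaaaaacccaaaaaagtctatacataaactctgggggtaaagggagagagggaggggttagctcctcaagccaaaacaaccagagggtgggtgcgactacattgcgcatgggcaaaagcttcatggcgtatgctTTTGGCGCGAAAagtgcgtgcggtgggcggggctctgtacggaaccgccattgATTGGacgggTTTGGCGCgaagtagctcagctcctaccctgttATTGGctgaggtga
Cdc6, chr11:98907901-98908150, plus strand: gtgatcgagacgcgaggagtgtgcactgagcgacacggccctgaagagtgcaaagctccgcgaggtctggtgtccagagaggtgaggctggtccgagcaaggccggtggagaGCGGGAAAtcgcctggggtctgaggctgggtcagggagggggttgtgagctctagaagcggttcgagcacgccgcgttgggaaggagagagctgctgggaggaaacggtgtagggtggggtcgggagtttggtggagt
Top2a, chr11:99024190-99024439, minus strand: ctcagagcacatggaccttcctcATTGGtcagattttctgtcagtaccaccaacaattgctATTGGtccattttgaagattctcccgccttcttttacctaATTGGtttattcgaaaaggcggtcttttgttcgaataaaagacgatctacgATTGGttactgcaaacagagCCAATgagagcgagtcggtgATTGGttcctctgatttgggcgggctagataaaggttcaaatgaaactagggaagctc
Rrm2, chr12:24708004-24708253, plus strand: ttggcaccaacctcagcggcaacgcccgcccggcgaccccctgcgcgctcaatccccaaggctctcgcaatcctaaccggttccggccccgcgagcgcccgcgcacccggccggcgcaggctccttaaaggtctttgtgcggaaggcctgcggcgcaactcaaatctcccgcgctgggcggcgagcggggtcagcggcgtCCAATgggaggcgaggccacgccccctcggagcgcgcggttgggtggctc
Rpa1, chr11:75348384-75348633, minus strand: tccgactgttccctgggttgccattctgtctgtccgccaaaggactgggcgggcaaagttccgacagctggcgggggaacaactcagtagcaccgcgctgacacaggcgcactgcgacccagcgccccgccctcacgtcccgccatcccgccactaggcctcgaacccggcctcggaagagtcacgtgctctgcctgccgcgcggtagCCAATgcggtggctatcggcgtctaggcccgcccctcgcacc
A match to these letters is a description of the window and not a binding site.

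The array labelled spleen KO stood apart from the others. The 75th percentile of its signal was 520, against 961 to 1008 on the other 3 arrays, and 59.3% of its gene spots were well above background against 69.1% to 72.0%. Signals below are the deposited processed signals, and differences are log2 values after each array's 75th percentile was subtracted. Mef2c itself was not lower on the arrays labelled KO by its brightest probe, with KO minus WT differences of 0.32 in the marrow and 1.37 in the spleen, and its other, dimmer probe gave 0.36 and -0.61. The labels do not say which part of the gene was removed, so a probe outside it checks nothing, and KO is used here as a label. Both marrow arrays were on 1 slide and both spleen arrays on another, so tissue and slide cannot be told apart. On both slides the KO sample took position 1 and the WT sample position 2, so genotype and position cannot be told apart either.

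Spleen was compared with marrow in each genotype to ask how the replication genes differ between the site where B cells develop and a site where mature B cells reside. All 36 genes were lower on the spleen WT array than on the marrow WT array, and 34 were at least 2-fold lower (94.4%), against 15.8% of 21099 genes measured. None was at least 2-fold higher, against 15.2% of all genes. The median difference was -2.22, with a range from -4.71 to -0.43, beside a median of -0.08 over all genes. On the arrays labelled KO, 30 of 36 were at least 2-fold lower in spleen (83.3%), against 13.9% of 20005 genes, 0 were 2-fold higher, against 15.8%, and the median was -1.91 beside 0.19 for all genes. Genes lower by at least 2-fold in both genotypes numbered 30. Cdt1, Mcm4, Pold1 and Pcna were 2-fold lower in WT alone, and Rfc2 and Rpa1 in neither. With quantile normalization or cyclic loess 31 genes were 2-fold lower in WT and 33 in KO. Which genotype had more such genes therefore depended on the scaling. The share of all genes lower in both genotypes, or in WT alone, was not counted. Over all genes 31.1% were 2-fold apart in either direction in WT and 29.7% in KO, each genotype taken singly. In bulk RNA, a smaller share of dividing cells and less of each RNA per cell cannot be told apart.

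The limma test, which takes both genotypes as repeats of 1 tissue difference and has 1 residual degree of freedom, called 20 of the 36 genes lower in spleen at an adjusted p under 0.05, beside 5.51% of all 21706 genes tested. The count was 32 with normexp background correction and 12 with cyclic loess. The share of all genes called under these settings is not given here, so these counts have no background beside them. The main fit called 0 higher, beside 2.92% of all genes. At an unadjusted p under 0.05 in limma 32 were lower and 0 higher, beside 11.3% and 9.33% of all genes. The call rests on all 4 arrays together: with any 1 of them left out and tissue as the only term, 0 members passed, with adjusted p-values of 0.0649 or more in limma. Calls were lost over all genes as well, with 0 genes lower in 3 of these fits and 108 without the marrow WT array. The prior degrees of freedom that limma estimated fell from 9.65 to between 2.004 and 6.26, while the members' median stayed between -2.27 and -1.96. At an unadjusted p under 0.05 the 3-array fits had 17 to 31 members lower (47.2% to 86.1%), beside 5.06% to 13.4% of all genes, and 34 to 36 members had a difference below 0. Nothing in the labels says that the arrays came from separate animals, so these p-values measure the spread between these arrays.

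**Figure D1:**
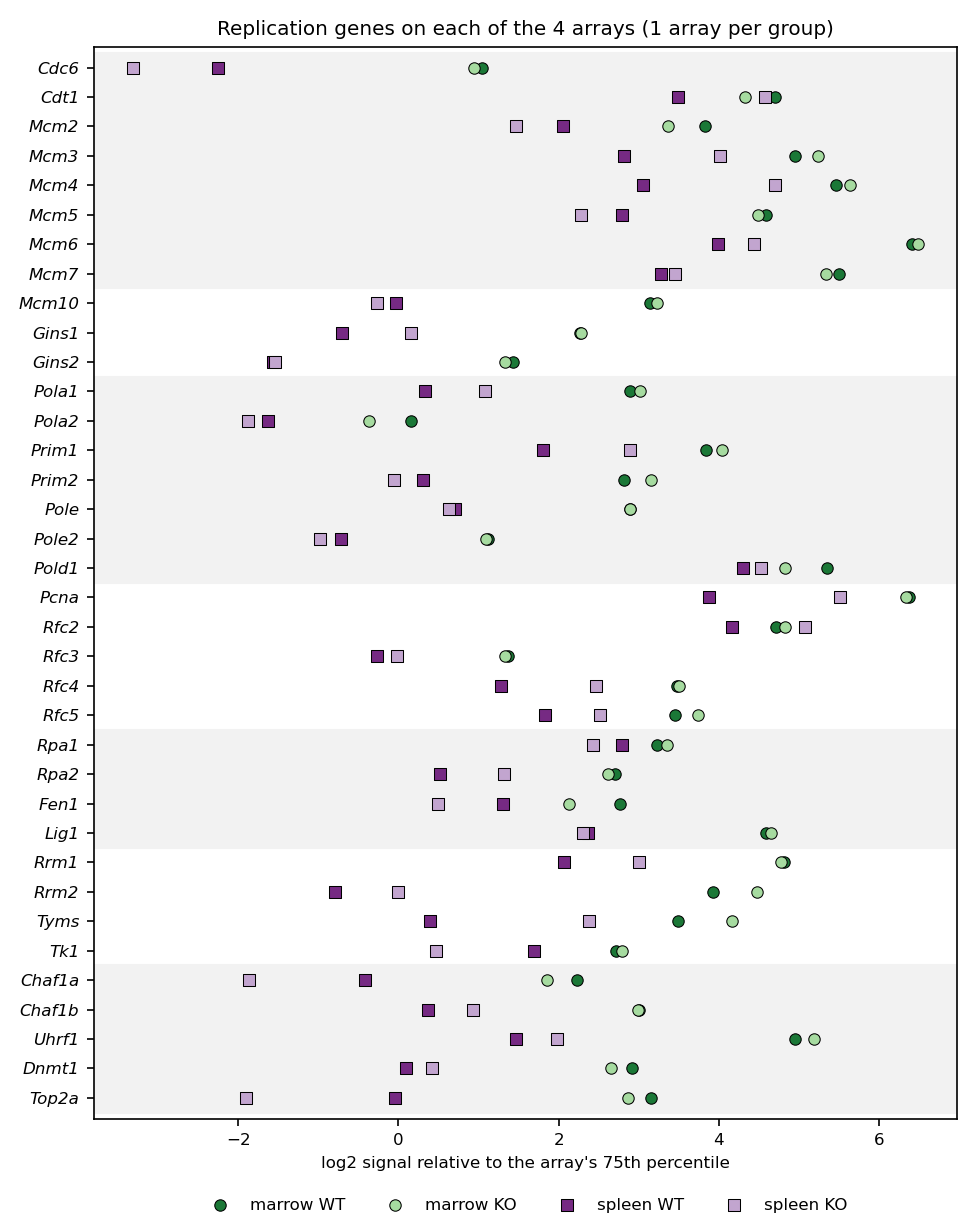
Log2 signal of each replication gene relative to the 75th percentile of its array (x axis), for marrow (circles) and spleen (squares), WT dark and KO light, with 1 array per group and shaded bands for the role groups in the order of the text. Both marrow points lie to the right of both spleen points for most genes, with the exceptions of Cdt1 and Rfc2, and the 4 points of Rfc2, Rpa1 and Pold1 span the least; positions compare arrays within a gene, not genes with each other.

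Among the licensing genes, Cdc6, the loader that recruits the helicase rings to origins, had the largest difference. Its signal was 1988 on marrow WT, 1945 on marrow KO, 204 on spleen WT and 52.4 on spleen KO. Both marrow arrays were high and both spleen arrays low, 9.82-fold lower in WT and 19.1-fold lower in KO. Cdc6 fell by 3.78 over both genotypes (SE 0.556, adjusted p = 0.00211 in limma). The 6 ring subunits Mcm2 to Mcm7 were between 3.42-fold (Mcm2) and 5.36-fold (Mcm6) lower in spleen WT, and between 1.91-fold (Mcm4) and 4.64-fold (Mcm5) lower in spleen KO. Mcm6 had signals of 81480 on marrow WT, 90261 on marrow KO, 15360 on spleen WT and 11292 on spleen KO. Mcm5, Mcm6 and Mcm7 passed the test, with adjusted p-values of 0.0455, 0.0272 and 0.0403 in limma, whereas Mcm2 at 0.0632, Mcm3 at 0.0956 and Mcm4 at 0.114 did not. Mcm4 had signals of 42492 on marrow WT, 50028 on marrow KO, 8086 on spleen WT and 13487 on spleen KO. Cdt1, the partner of Cdc6 in loading, differed least of this group. It had signals of 25086 on marrow WT, 20177 on marrow KO, 10864 on spleen WT and 12455 on spleen KO, which is 2.33-fold lower in WT and 1.20-fold higher in KO after scaling.

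The 3 genes of helicase activation were close to each other. Mcm10, a factor needed to start unwinding, had signals of 8501 on marrow WT, 9490 on marrow KO, 951 on spleen WT and 432 on spleen KO. Gins1 and Gins2 are subunits of the Gins complex that joins the Mcm ring in the active helicase. Gins2 had signals of 2592 and 2530 on marrow WT and KO and 327 and 179 on spleen WT and KO. All 3 were 7.82-fold to 9.02-fold lower in WT, with a range of -3.17 to -2.97 on the log2 scale, and 4.36-fold to 11.3-fold lower in KO. Mcm10, Gins2 and Gins1 passed, with adjusted p-values of 0.00346, 0.00675 and 0.0160 in limma.

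Of 7 polymerase and primase genes, all 7 were at least 2-fold lower in WT and 6 in KO, and 4 passed the test. The shares of all genes were 15.8% and 13.9% 2-fold lower and 5.51% called lower. Prim2, the large primase subunit, had signals of 6786 on marrow WT, 8995 on marrow KO, 1204 on spleen WT and 501 on spleen KO. It fell by 2.86 (SE 0.546, adjusted p = 0.00842 in limma). Pole, the catalytic subunit of the leading strand polymerase epsilon, had signals of 7135, 7515, 1578 and 805 in the same order of arrays, and was 4.57-fold lower in WT and 4.81-fold lower in KO. It passed with an adjusted p of 0.0266 in limma, as did Pola1, the catalytic subunit of polymerase alpha, at 0.0275, and Pole2, the second subunit of polymerase epsilon, at 0.0485. Prim1, the catalytic primase subunit, was 4.09-fold lower in WT and 2.21-fold lower in KO, and Pola2, a regulatory subunit of polymerase alpha, 3.46-fold and 2.86-fold lower, and neither passed. Pold1, the catalytic subunit of polymerase delta, differed least. Its signals were 39342 on marrow WT, 28645 on marrow KO, 19138 on spleen WT and 11990 on spleen KO, 2.08-fold lower in WT and 1.23-fold lower in KO.

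Of the clamp Pcna and 4 subunits of its loader, 0 passed the test, beside 5.51% of all genes called lower. Their adjusted p-values ran from 0.116 (Rfc4) to 0.939 (Rfc2) in limma. Pcna, the ring that holds polymerases to DNA, had signals of 79883 on marrow WT, 81248 on marrow KO, 14292 on spleen WT and 23784 on spleen KO. The marrow arrays were close to each other and above both spleen arrays, 5.64-fold in WT and 1.76-fold in KO. Rfc3, Rfc4 and Rfc5 were 3.10-fold to 4.57-fold lower in spleen WT and 2.05-fold to 2.54-fold lower in spleen KO. Rfc2 had signals of 25251 on marrow WT, 28642 on marrow KO, 17390 on spleen WT and 17528 on spleen KO. It was 1.47-fold lower in WT and 1.19-fold higher in KO after scaling.

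The proteins that coat single strands and join Okazaki fragments, the short pieces of the lagging strand, were mixed. Lig1, the ligase that seals the fragments, had signals of 23089 on marrow WT, 25419 on marrow KO, 5016 on spleen WT and 2562 on spleen KO. It fell by 2.29 (SE 0.536, adjusted p = 0.0235 in limma). Fen1, the flap nuclease that trims the fragments, was 2.76-fold lower in WT and 3.10-fold lower in KO, with an adjusted p of 0.113 in limma. Rpa2 was 4.53-fold and 2.47-fold lower (adjusted p = 0.0837 in limma). Rpa1, the large subunit of the same single-strand binding complex, had signals of 8995 on marrow WT, 10301 on marrow KO, 6742 on spleen WT and 2810 on spleen KO. It was 1.35-fold lower in WT and 1.89-fold lower in KO, and did not pass (adjusted p = 0.588 in limma).

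Nucleotide synthesis held the largest difference of the 36 genes in WT. Rrm2, the subunit of ribonucleotide reductase whose level follows the cell cycle, had signals of 14571 on marrow WT, 22544 on marrow KO, 561 on spleen WT and 517 on spleen KO. It was 26.2-fold lower in spleen in WT and 22.5-fold lower in KO, and fell by 4.60 (SE 0.537, adjusted p = 0.000681 in limma). Its partner Rrm1, the large subunit, was 6.69-fold lower in WT and 3.43-fold lower in KO (adjusted p = 0.0295 in limma). Tyms, thymidylate synthase, had signals of 10837 on marrow WT, 18099 on marrow KO, 1281 on spleen WT and 2695 on spleen KO. It fell by 2.44 (SE 0.572, adjusted p = 0.0233 in limma). Tk1, the thymidine kinase of the salvage pathway, had signals of 6341 on marrow WT, 6989 on marrow KO, 3129 on spleen WT and 718 on spleen KO, and its difference did not pass (adjusted p = 0.106 in limma).

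All 5 genes of chromatin assembly, DNA methylation and topology passed the test, beside 5.51% of all genes called lower. Uhrf1, which reads hemimethylated DNA and recruits the maintenance methyltransferase, had signals of 29662 on marrow WT, 36867 on marrow KO, 2691 on spleen WT and 2056 on spleen KO. Uhrf1 fell by 3.34 (SE 0.537, adjusted p = 0.00342 in limma). Dnmt1 is that methyltransferase and fell by 2.53 (SE 0.543, adjusted p = 0.0156 in limma). Chaf1a and Chaf1b, subunits of the histone chaperone CAF-1, fell by 3.19 and 2.35. Top2a, the topoisomerase that untangles replicated chromosomes, had signals of 8557 on marrow WT, 7376 on marrow KO, 942 on spleen WT and 139 on spleen KO. It was 9.17-fold lower in WT and 27.4-fold lower in KO and fell by 3.99 (SE 0.588, adjusted p = 0.00213 in limma).

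**Figure D2:**
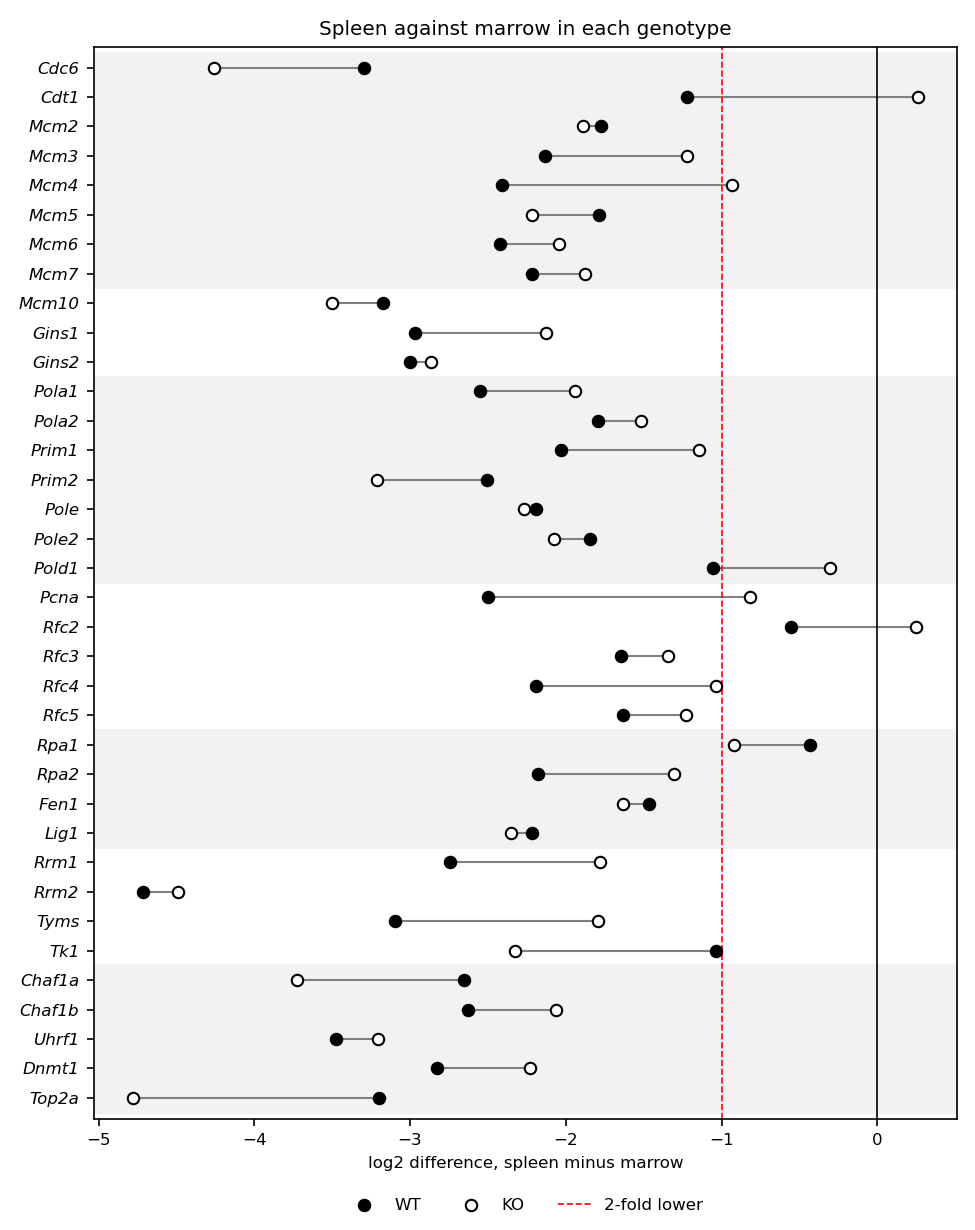
Log2 difference of spleen minus marrow for each replication gene (x axis) in WT (filled) and KO (open), from 1 array per group, with a dashed line at 2-fold lower. WT points lie between -4.71 and -0.43, 34 of them at or left of the line, and KO points between -4.78 and 0.26.

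By window, the median difference between WT tissues was -1.99 for the 10 genes with an E2F word (range -3.30 to -1.05). It was -2.36 for the 20 without one (range -4.71 to -0.43). Only the window at the most upstream start and exact words were searched, so a gene without a match may hold a site elsewhere. A part of E2F in these differences was not tested. Mcm6 and Mcm5, which hold overlapping E2F words, differed by -2.42 and -1.79. Cdc6, with 1 E2F word and no CCAAT box, differed by -3.30. Of the printed windows with CCAAT boxes and no E2F word, that of Rrm2 went with -4.71, that of Top2a with -3.20 and that of Rpa1 with -0.43, so the printed windows show no one order.

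Other genes of replication and of the step from G1 into S phase were taken from 3 further lists. Like the 36, these lists were chosen with earlier results of these data known. They were read on the same 4 arrays, so they are not independent of the 36. Each list had a median below 0 in both genotypes and held genes on both sides of 0. Of 38 other fork and origin genes 26 were at least 2-fold lower in WT (68.4%) and 13 in KO (34.2%), with medians of -1.66 and -0.46. Over all genes 15.8% were lower in WT and 13.9% in KO. At least 2-fold higher were 0 in WT and 1 in KO, against 15.2% and 15.8% of all genes. In limma 10 of these 38 passed as lower and 0 as higher, beside 5.51% and 2.92% of all genes. Among them were Ticrr, a factor of helicase activation, which fell by 3.50 (adjusted p = 0.00279 in limma), Cdc45, a part of the active helicase, which fell by 3.28, and the histone chaperone Asf1b, which fell by 3.05. Mcm9, Pold4 and Orc3 stood at the other end, with fitted differences of 0.95, 0.89 and 0.39, and did not pass.

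Of 27 measured genes of the wider nucleotide pathways, 13 were at least 2-fold lower (48.1%) and 1 higher (3.70%) in WT. Over all genes 15.8% were lower and 15.2% higher there. In KO 6 were lower (22.2%) and 3 higher (11.1%), nearer the 13.9% and 15.8% of all genes. In limma 4 passed as lower and 0 as higher, beside 5.51% and 2.92% of all genes. Among the 4 were Dck, deoxycytidine kinase, which fell by 2.83, and Impdh1 of guanine nucleotide synthesis, which fell by 2.39. Dut, which breaks down dUTP, also passed and fell by 2.36. Samhd1, which degrades dNTPs, was higher by a fitted 1.07, and Nme2 and Nme1, nucleoside diphosphate kinases, by 0.85 and 0.60, and none of these 3 passed. Nme1 and Nme2 are neighbouring genes of similar sequence, and whether a probe of 1 also reads the other was not checked.

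Of 32 measured G1/S regulators, 21 were at least 2-fold lower in WT and 21 in KO (65.6% each), with medians of -1.85 and -1.78. Over all genes 15.8% were lower in WT and 13.9% in KO. At least 2-fold higher were 0 in WT and 2 in KO. In limma 15 passed as lower with 0 higher, beside 5.51% and 2.92% of all genes. E2f7, an atypical E2F repressor, fell by 4.93, Ccna2, the cyclin A of S phase, fell by 4.74, and E2f8, another atypical E2F, fell by 4.28. At the other end Myc, E2f5 and Rbl2 had fitted differences of 1.28, 0.96 and 0.24 and did not pass.

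**Figure D3:**
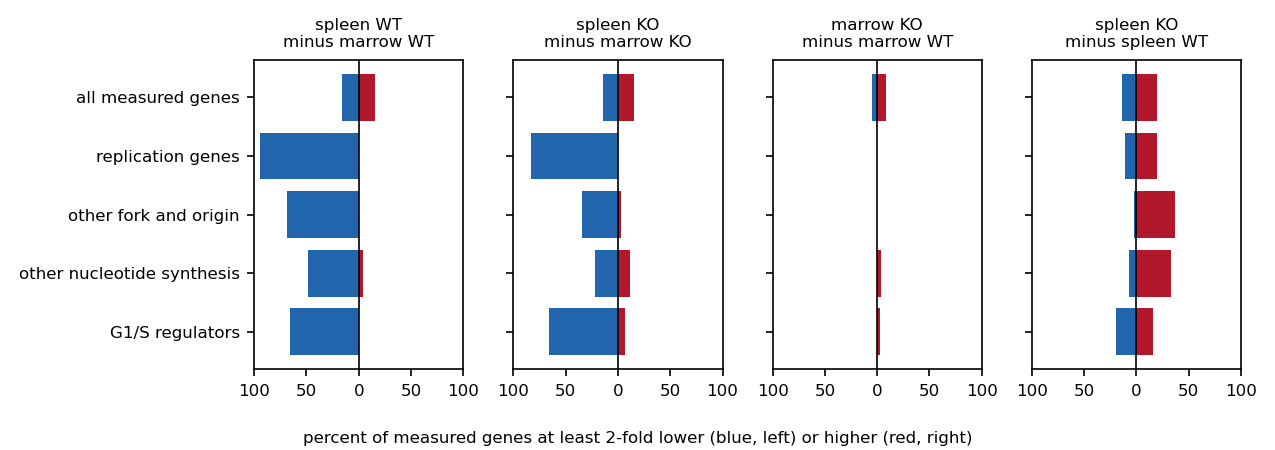
Percent of measured genes at least 2-fold lower (left, blue) or higher (right, red) in each of the 4 comparisons, for all measured genes, the 36 replication genes and the 3 further lists. In WT 94.4% of the replication genes and 15.8% of all genes were lower in spleen, and in marrow KO against WT 0 replication genes were past 2-fold.

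Markers of cell types moved with the tissue as well, and their part in these differences was not tested. The summed signal of 12 early B cell markers, in units of each array's 75th percentile, was 479 on marrow WT and 753 on marrow KO, and 63.5 and 43.3 on spleen WT and KO. The brightest of them, Vpreb3, carried most of the spleen sums and differed between tissues by -2.05 in WT, whereas the median over the 12 markers was -5.74 in WT and -5.91 in KO. That of 9 mature B cell markers was 114 and 62.3 on the marrow arrays and 340.5 and 433 on the spleen arrays. The rise of this sum from spleen WT to KO came with Ms4a1, the brightest of the list, at 1.17, while the median over the 9 markers was 0.0040 there and their mean -0.63, with 2 at least 2-fold higher and 3 lower. Among other cell types with dividing precursors, promyelocytes had 5 marker genes on the array, not all of them for granule proteins. These summed to 2.18 on marrow WT, 10.48 on marrow KO, 0.217 on spleen WT and 0.388 on spleen KO. In that order 5, 5, 4 and 3 of the 5 were well above background. Genes of neutrophils (10) summed to 439, 1438, 11.2 and 145 in the same order, and 9 erythroid genes to 37.8, 24.8, 26.2 and 170. All 12 early B markers were measurable above background in either marrow sample, and 10 of 12 in either spleen sample. Germinal centre and plasmablast genes (8) summed to 11.3 and 6.18 on marrow WT and KO and to 54.2 and 13.3 on spleen WT and KO. In that order 7, 7, 8 and 5 of the 8 were well above background. Their median difference between tissues was 0.55 in WT, with a range from -0.78 to 5.57 and 3 at least 2-fold higher, and 0.31 in KO. Genes of macrophages (8) summed to 16.3, 14.4, 44.1 and 113, and of T cells (8) to 1.03, 3.90, 2.81 and 2.66.

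The comparison of KO with WT in the marrow asked whether replication genes differ with the genotype label where B cells develop. Of these genes 0 of 36 were at least 2-fold higher, against 8.40% of 20901 genes, and 0 were 2-fold lower, against 4.87% (13.3% apart in either direction). The median difference was -0.00, with 18 genes above 0 and 18 below, beside a median of -0.05 over all genes, and the SD over the 36 genes was 0.289. Bright probes differed less between these arrays: 25 of the 36 genes lay in the brightest of 4 equal groups of genes, where 2.67% of all genes were 2-fold higher and 2.08% lower, so the count of 0 lies near that of genes as bright. The range ran from -0.64 for Fen1 to 0.67 for Tyms. Fen1 had signals of 6554 on marrow WT and 4402 on marrow KO, and Rrm2 followed Tyms at 0.56. Rrm2 and Tyms lay on the high side, while Pola2 at -0.53, Pold1 at -0.53 and Mcm2 at -0.47 lay with Fen1 on the low side. The median SD of repeated spots on 1 array was 0.0639 to 0.0782 on the log2 scale, which covers spotting alone.

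These marrow values stood beside markers that did differ. The same KO array had 5 of 5 promyelocyte marker genes and 9 of 10 neutrophil genes at least 2-fold higher than WT, with medians of 2.21 and 2.75. Early B markers had a median of 0.83 and 5 of 12 past 2-fold, all higher. Mature B markers had a median of -1.02 and 5 of 9 past 2-fold, all lower.

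**Figure D4:**
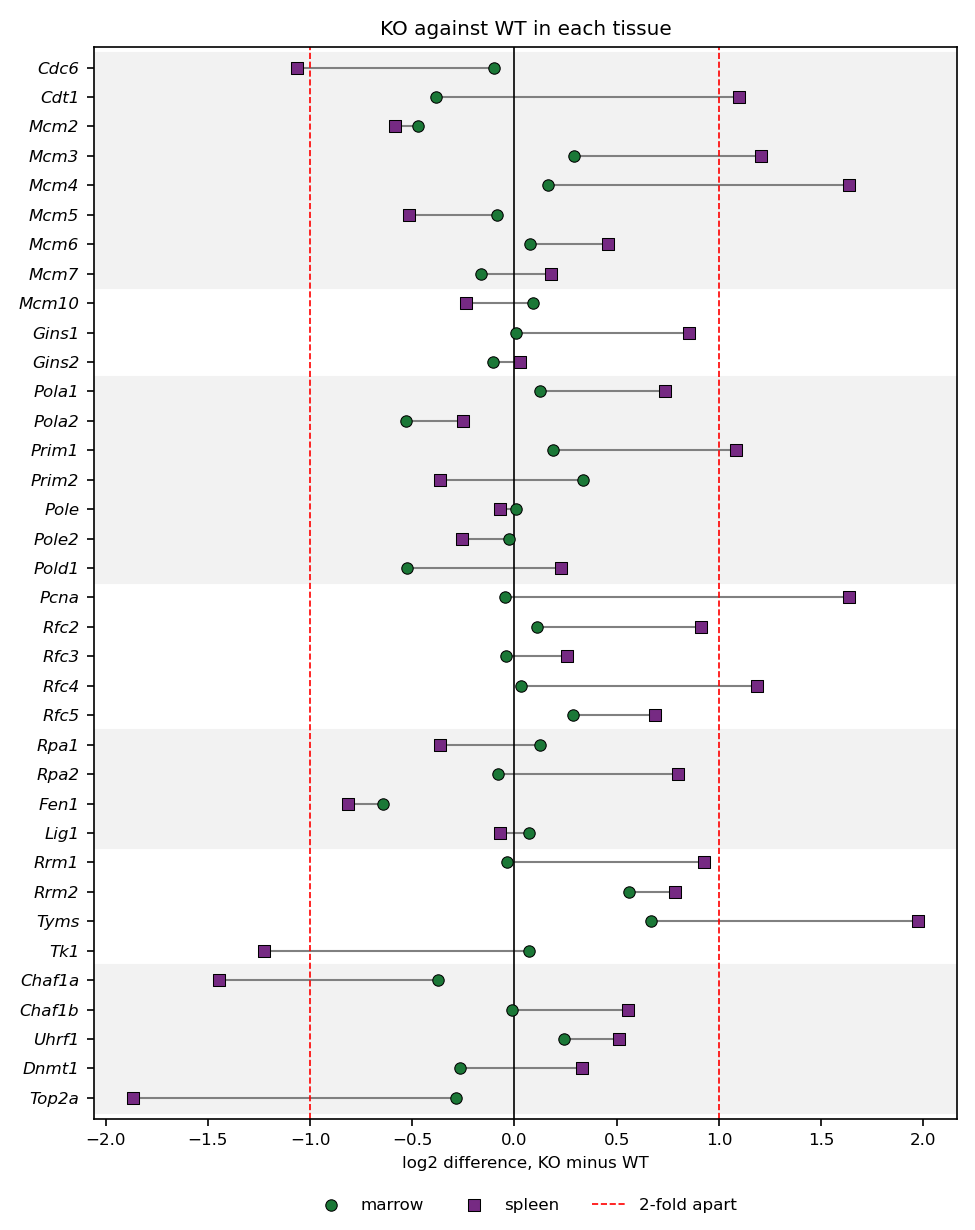
Log2 difference of KO minus WT for each replication gene (x axis) in marrow (circles) and spleen (squares), from 1 array per group, with dashed lines at 2-fold. Marrow points lie between -0.64 and 0.67, and spleen points spread from -1.87 (Top2a) to 1.97 (Tyms).

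In the spleen the replication genes went both ways between KO and WT. At least 2-fold higher on the array labelled KO were 7 of 36 genes, against 20.0% of 19479 genes, and 4 were lower, against 14.2% (34.2% apart in either direction), so that the shares lay near those of all genes. The median was 0.29, beside 0.28 over all genes. The split of 7 higher and 4 lower depended on the scaling between arrays: it was 14 and 2 when arrays were scaled by their median, 1 and 5 with quantile normalization and 1 and 6 with cyclic loess, which gave a median of -0.08. Median scaling raised the median of all genes to 0.71, and as a shift of whole arrays it left the replication genes' median 0.015 above that of all genes. Relative to all genes that median was -0.091 with normexp, -0.12 with quantile normalization and -0.28 with cyclic loess.

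The 7 higher genes were Tyms at 1.97, Mcm4 and Pcna at 1.64 each, Mcm3 at 1.21, Rfc4 at 1.19, Cdt1 at 1.097 and Prim1 at 1.08. Tyms, whose 4 signals are given above, had the highest KO minus WT difference of the 36 in both tissues. Prim1 had signals of 3405 on spleen WT and 3861 on spleen KO, so that its difference comes after scaling. The 4 lower genes were Top2a at -1.87, Chaf1a at -1.45, Tk1 at -1.22 and Cdc6 at -1.06. Chaf1a had signals of 4524 on marrow WT, 3663 on marrow KO, 727 on spleen WT and 143 on spleen KO.

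The direction moved with how bright a probe was. Genes well above background on both spleen arrays were divided by mean level into 4 groups of equal size. In the brightest group 18 members had a median of 0.80, where all genes of that group had 0.76. In the next group 16 members had a median of -0.02, where all genes had 0.30, and in the one below 2 members had a median of -0.66, where all genes had -0.00. The part of brightness in these differences was not tested.

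The spleen differences also depended on which probe of a gene was read. Of the 36 genes 13 had more than 1 probe, and 8 had at least 2 that were well above background on all 4 arrays, which gave 10 pairs of probes. In the spleen the KO minus WT difference had opposite signs within 5 of the 10 pairs, and the probe nearer the 3' end, by the files' mm9 coordinates, was the higher one in 8 of 10. The median gap, nearer minus farther, was 0.70, and the median size of the gap was 0.91. The exceptions were Rpa2, with a gap of -0.009, and 1 of 3 pairs of Tyms, with a gap of -1.89, which includes a dim probe with signals of 52.1 on marrow WT, 55.2 on marrow KO, 38.7 on spleen WT and 20.8 on spleen KO. In the marrow the signs differed within 3 of 10 pairs, the median gap was 0.12 and its median size 0.21. The probe nearer the 3' end was also the brighter one in most pairs, except for Cdc6, Rpa2 and that same pair of Tyms. Position and brightness therefore cannot be told apart in these pairs. Spacing on mm9 ran from 103 bases (Uhrf1) to 19854.5 bases (Gins1).

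Mcm3 showed the widest gap outside Tyms. Its probe at chr1:20793119-20793178 differed by 1.21 between spleen KO and WT, and its probe farther from the 3' end, at chr1:20795363-20795879, by -0.48. Cdc6 differed by 0.32 at chr11:98785169-98785228, the probe nearer the 3' end, and by -1.06 at chr11:98782573-98782632, its brightest probe. Rfc2 was 0.91 at chr5:135074132-135074191 and -0.09 at chr5:135073809-135073868. For the comparison of WT tissues both probes had the same sign in all 10 pairs and the median size of the gap was 0.21. Of them 2, both of Tyms, were over 2-fold apart at -2.65 and 2.70. These pairs leave out probes that were not well above background on every array. A dim Pola2 probe left out, at 43.0 on marrow WT and 106 on spleen WT, differed by 1.28, against -1.79 for its brightest. For Top2a the probes left out gave -1.42 and, with a signal of 13.3 on spleen WT, -2.89, against -3.20 for its brightest. For the KO tissues 1 pair had opposite signs and the median size was 0.48. Whether the array labelled spleen KO differs in RNA quality was not tested.

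**Figure D5:**
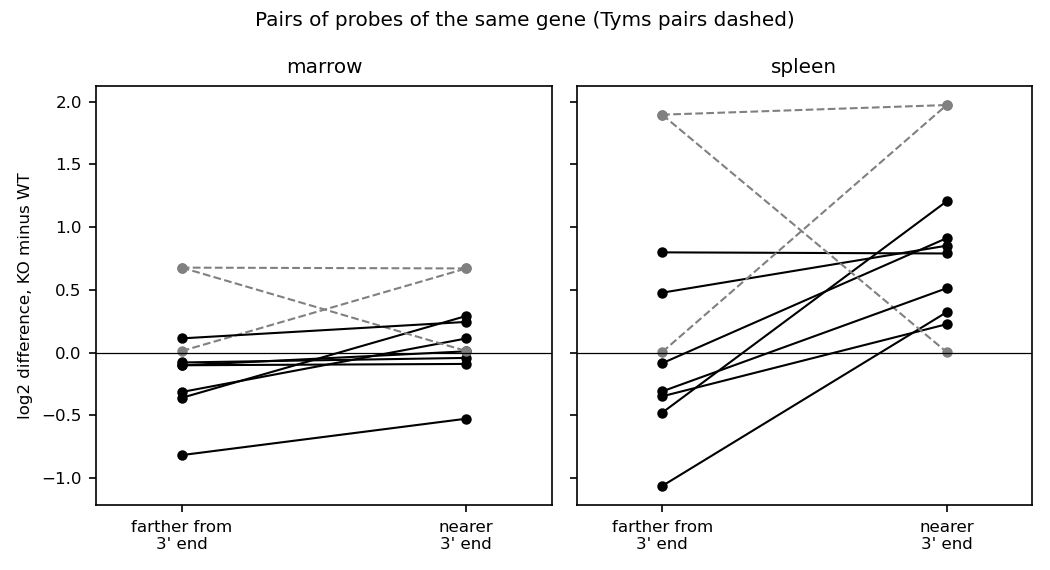
KO minus WT log2 difference (y axis) of the 2 probes of each pair, the one farther from and the one nearer the 3' end, in marrow (left) and spleen (right), for 10 pairs of 8 genes on 1 array per group, with the 3 Tyms pairs dashed. In the spleen most lines rise to the right, with a median gap of 0.70, and in the marrow they are flatter, with a median gap of 0.12.

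Taking both tissues as repeats of 1 genotype effect, limma called 0 of 36 genes at an adjusted p under 0.05, beside 0.0507% of 21706 genes called higher and 0.0138% called lower. At an unadjusted p under 0.05, where 5.33% of all genes were higher and 6.06% lower, there was 1 member, Tyms, higher in KO by a fitted 1.32 (SE 0.572, adjusted p = 0.417 in limma) and higher on the KO array in both tissues. Of the 36 genes 12 were above 0 in both tissues, among them Rrm2 and Uhrf1, and 8 were below 0 in both, among them Fen1, Mcm2 and Top2a. Taken singly, 18 were above 0 in the marrow and 22 in the spleen. The share of all genes with 1 sign in both tissues was not counted, so these joint counts have no background beside them. Both tissue differences use the same arrays as the genotype differences, so the values of the 4 comparisons are not independent of each other. Whether the genotype difference depends on the tissue was not tested, since that term would use up all 4 arrays.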

How the data were processed

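RNA of B220 cells was measured on 4 Agilent 1-colour arrays, 1 per group. The deposited intensity values come from Agilent Feature Extraction 10.5.1.1 with the background removed as a fitted spatial surface, multiplicative detrending and no normalization between arrays, on a design placed on mm9, per the file headers. The deposited series matrix held the same intensity values at all 45018 spots. Control spots and 72 to 85 outlier-marked gene spots per array were left out, 0 gene spots were saturated, log2 signals were reduced by each array's 75th percentile, and spots of a probe were averaged. A gene, by its name in the files, was its brightest probe. Genes were counted when at least 2-fold apart, as a bound where 1 array was not well above background. Tests used limma 3.58.1 in R 4.3.3 with tissue and genotype as terms and Benjamini-Hochberg adjustment over the 21706 genes that at least 1 array measured well above background, and were tested on simulated data. Named genes are all 36 members, and of each further list the 3 lowest and 3 highest by tissue difference among genes above background on all 4 arrays. Older names in the files were matched by accession or synonym for 9 pathway genes and 5 markers. The members and lists were chosen with earlier results of these data known. Alternatives were normexp with an offset of 50, median scaling, quantile normalization, cyclic loess, no dim filter, 1.5-fold, other probe choices, the series matrix and a trended prior.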

Additional observations from a re-analysis of the deposited data

Results flagged for a closer look

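Members are listed here whose difference had opposite signs in 2 groups and was at least 2-fold in 1 of them; these differences between groups were not tested, with 1 array per group. Cdt1 differed between KO and WT by -0.38 in marrow and 1.097 in spleen, and between spleen and marrow by -1.22 in WT and 0.26 in KO. Pcna differed between KO and WT by -0.045 in marrow and 1.64 in spleen. Tk1 differed by 0.071 in marrow and -1.22 in spleen. Each rests on the array labelled spleen KO, and each of these genes has 1 probe. The marrow values of Pcna and Tk1 were smaller in size than 0.0782, the median SD of repeated spots on marrow WT. Their signs in marrow are therefore not settled. Relative to the median of all genes, Pcna in marrow was 0.0095, with the other sign. With quantile normalization or cyclic loess, 1 replication gene was at least 2-fold higher in spleen KO than in spleen WT. At most 1 of Cdt1 and Pcna therefore kept that difference under each of these settings.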

How the results depend on the processing

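The counts of replication genes at least 2-fold lower in spleen stayed within 1.5 times the reported ones under every alternative run. With counts this near 36 that is a wide limit. The order of the genotypes did change, from 34 in WT and 30 in KO to 31 and 33 with quantile normalization or cyclic loess. The median of the 36 genes was -2.41 in WT and -1.71 in KO with median scaling, and -1.99 and -2.20 with cyclic loess. In the marrow, 1 gene was higher and 1 lower at 1.5-fold. For KO against WT in the spleen, 14 genes were higher with median scaling and at 1.5-fold, and 1 with quantile normalization and with cyclic loess, 2 were lower with median scaling, and the median was 0.73, 0.15 and -0.082 with median scaling, quantile normalization and cyclic loess, the last with the other sign. In limma 32 members were lower in spleen with normexp and 12 with cyclic loess, and 0 with each array left out in turn (0 to 0, chosen after seeing the data); the cause was not tested. The counts of 32 and 12 have no share of all genes beside them. For genotype 0 of the 36 genes passed in limma under each alternative run. No paired analysis was possible because the labels give no replicate numbers; each slide held 1 KO and 1 WT array, so the fit with tissue and genotype as terms already compares genotypes within a slide. The brightest probes of all 36 genes were well above background on all 4 arrays, though that of Cdc6 had a signal of 52.4 on spleen KO. Of the 16 other probes of these genes 9 were, which limits the comparison of probes. Probes near background also limit the lists beyond the 36 genes.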
